A study of Mus musculus with 4 samples.

Results

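Genes of mitosis and of the spindle checkpoint were followed across the 4 arrays of a study of mouse embryonic stem (ES) cells that differentiate towards blood. A list of 44 gene symbols was chosen by name, with earlier results of these data known. It was matched to probe sets whose annotation on the array platform gives that symbol alone. This found 39 of the 44 genes, on 52 of 12422 probe sets, among 8251 genes in all. Bub1b, Ccnb1, Cdc25b, Cenpf and Tpx2 were not analysed here, and 1 further probe set that the annotation shares between Ran and Rasl2-9 was left out.

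The study used Scl+/hCD4 ES cells, in which human CD4 on the cell surface reports expression of Scl, a transcription factor of early blood encoded by Tal1. All RNA came from this 1 line. The ES cells were kept on STO cells (mitotically inactive feeder fibroblasts) with LIF, moved to gelatin-coated flasks, and differentiated in serum-containing liquid medium for 2.75 days into embryoid bodies. From these bodies, Flk-1+Scl+ cells were sorted as hemangioblasts (Flk-1 is the VEGF receptor of the gene Kdr), and other embryoid body cells were replated to give blast colonies, which were pooled. The array titles name 2 groups, Hemangioblast and hCD4, with 2 arrays each. The source names call them hemangioblasts and hCD4 ES cells, while the design text speaks of hCD4 and Blast, so which population lies on which arrays is not settled by the labels. The groups are called by their titles here, and a change is always Hemangioblast minus hCD4. The labels do not say whether replicate arrays come from different cultures, and p-values then reflect only array-to-array spread, which may be technical.

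In mitosis the cell separates its copied chromosomes and then divides. Cdk1 with a cyclin partner starts the process, the kinases Plk1 and Aurka build the spindle, and kinesins and condensins move and compact the chromosomes. The spindle checkpoint (Bub1, Bub3, Mad2l1, Ttk) holds back Cdc20, an activator of the ubiquitin ligase APC/C, until every kinetochore is attached. ES cells and early blood progenitors are both known for rapid division. Many of these genes are transcribed together late in the cell cycle through 2 promoter elements, the cell cycle genes homology region (CHR), read here as TTTGAA, and the CCAAT box.

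Promoters of the genes are shown because both elements recur close to the start in members that act at different steps. RefSeq promoters of the mouse build GRCm38.p6, each running from 250 bases before to 50 bases after a gene's start, were matched by symbol for 35 of the 44 genes. Entries for Aurkb, Ccna2, Cdc25c, Foxm1, Incenp, Kif20a, Smc4, Stmn1 and Tpx2 were not matched. The 6 windows below run from 120 bases before the start to 12 bases from the start onward, 5′ to 3′ on the strand of the gene, with capitals marking TTTGAA and CCAAT in either orientation. They belong to Kif23, the only member past the threshold used below, to its cytokinesis partners Racgap1 and Ect2, and to Cdk1, Cdc20 and Top2a. All 6 hold both motifs, as do 23 of the 35 genes, so they do not stand for every member.
Kif23: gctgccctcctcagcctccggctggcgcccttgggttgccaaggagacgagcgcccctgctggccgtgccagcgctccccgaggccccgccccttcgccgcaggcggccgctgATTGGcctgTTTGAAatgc
Racgap1: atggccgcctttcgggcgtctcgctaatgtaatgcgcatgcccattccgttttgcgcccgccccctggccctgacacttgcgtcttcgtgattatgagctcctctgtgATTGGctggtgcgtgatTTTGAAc
Ect2: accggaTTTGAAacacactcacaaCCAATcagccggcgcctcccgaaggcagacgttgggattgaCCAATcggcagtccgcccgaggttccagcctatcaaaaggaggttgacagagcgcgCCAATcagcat
Cdk1: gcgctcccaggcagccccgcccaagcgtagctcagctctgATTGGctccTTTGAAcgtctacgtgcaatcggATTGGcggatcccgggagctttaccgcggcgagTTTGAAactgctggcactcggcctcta
Cdc20: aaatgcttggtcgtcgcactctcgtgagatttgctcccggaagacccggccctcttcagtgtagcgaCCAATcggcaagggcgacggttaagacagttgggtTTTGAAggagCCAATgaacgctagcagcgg
Top2a: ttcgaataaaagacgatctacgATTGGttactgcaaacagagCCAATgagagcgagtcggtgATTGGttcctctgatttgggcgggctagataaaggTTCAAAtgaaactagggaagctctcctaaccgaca

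The windows lie on the minus strand at chr9:61946788-61946919 (Kif23), chr15:99651645-99651776 (Racgap1), chr3:27153867-27153998 (Ect2), chr10:69352901-69353032 (Cdk1), chr4:118437332-118437463 (Cdc20) and chr11:99024178-99024309 (Top2a). Each holds the sequence just before the transcription start and the first bases of the first exon. Searched on both strands over the whole 300 bases, TTTGAA was present for 24 of the 35 genes (68.6%), against 20.2% of all 27025 genes in the promoter table and 15.5% of the 6576 of them named on the array. CCAAT was present for 30 of 35 (85.7%), against 41.1% and 42.5%. Both were present for 23 of 35 (65.7%), against 7.97% and 6.37%. In 0 member promoters did matches of the 2 motifs share a base, and a gene with several promoters counts once if any of them holds the motif. A TTTGAA within 60 bases of the start, a window set after the positions were seen, was found for 22 of 35 (62.9%), against 6.36% and 4.65%. In Kif23 it begins 2 bases and in Racgap1 5 bases after the start base, and in Cdc20 it begins 18 bases before it (-18). These are matches of letters, and no array value bears on whether a factor binds them.

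Across the members, expression differed little between the groups. Only Kif23, a kinesin of cytokinesis, passed the threshold of an adjusted p of 0.05 (limma, Benjamini-Hochberg over 12422 probe sets). It was lower on the Hemangioblast arrays. This is 1 of 39 genes (2.56%), where 5.38% of all 8251 genes passed, 3.43% higher and 1.95% lower. Pairing each Hemangioblast with each hCD4 array gives 4 ratios. No member was 2-fold or more apart, one way, in all of them, which 3.19% of all genes were. For 36 of 39 members (92.3%) the 95% interval of the log2 change lay inside a 2-fold difference in either direction, against 65.1% of all genes. The exceptions were Kif23, Cdc25a and Ube2c. Inside a 1.5-fold difference lay the intervals of 17 of 39 members and of 1472 of 8251 genes. For the other members a change of that size is not excluded. The members were measured more precisely than most genes, with a median standard error (SE) of 0.17 against 0.25, and were brighter, with a median mean intensity of 791 against 265.

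**Figure D1:**
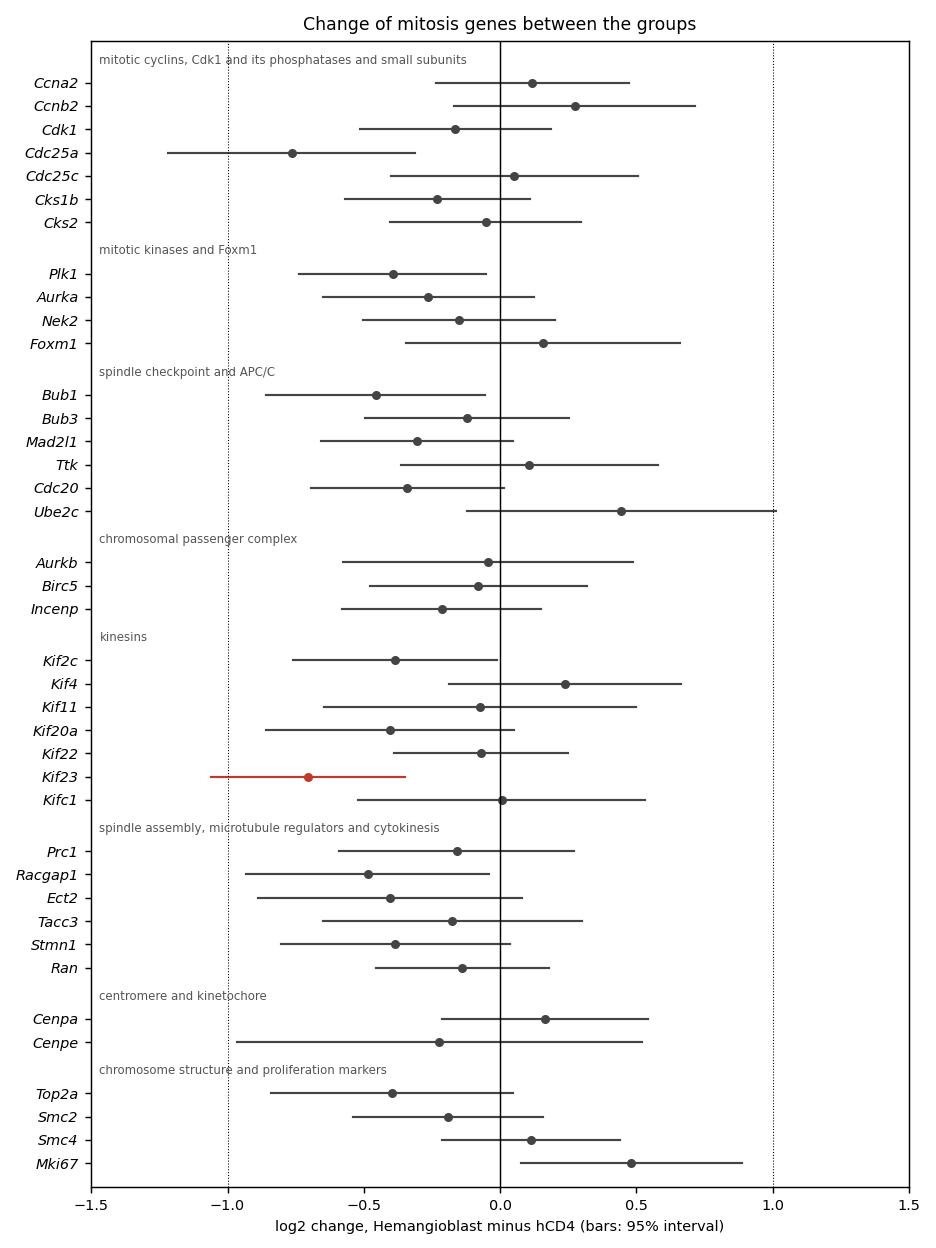
Log2 change (Hemangioblast minus hCD4, dot) with its 95% interval from limma (bar) for the 39 measured mitosis genes, grouped by role, with 2 arrays per group. The dotted lines mark a 2-fold change. Kif23, in red, is the only member past an adjusted p of 0.05, and 36 of the 39 intervals lie between the dotted lines.

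Most members leaned towards lower values on the Hemangioblast arrays, by small amounts. The change was below 0 for 28 of 39 members (71.8%), against 47.5% of all genes, and the median change was -0.16 against 0.02. The 2 sets of arrays did not overlap for 25 members (64.1%), where 46.6% of all genes did not. The Hemangioblast arrays were the lower ones for 20 of the 39 members (51.3%, against 22.0% of all genes). They were the higher ones for 5 of the 39 (12.8%, against 24.5% of all genes). An unadjusted p under 0.05 was found for 7 members (17.9%), close to the 18.3% of all genes. Of the 39 members, 6 were lower at this level (Kif23, Cdc25a, Bub1, Plk1, Racgap1 and Kif2c), against 8.67% of all genes. Of the 39, 1 was higher (Mki67), against 9.64% of all genes. The changes ran from -0.76 for Cdc25a to 0.48 for Mki67. These counts describe the list, and no set test was made. The members were brighter than most genes and were not compared with genes of like intensity. Changes below 0 were also common among the brightest genes on the arrays.

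**Figure D2:**
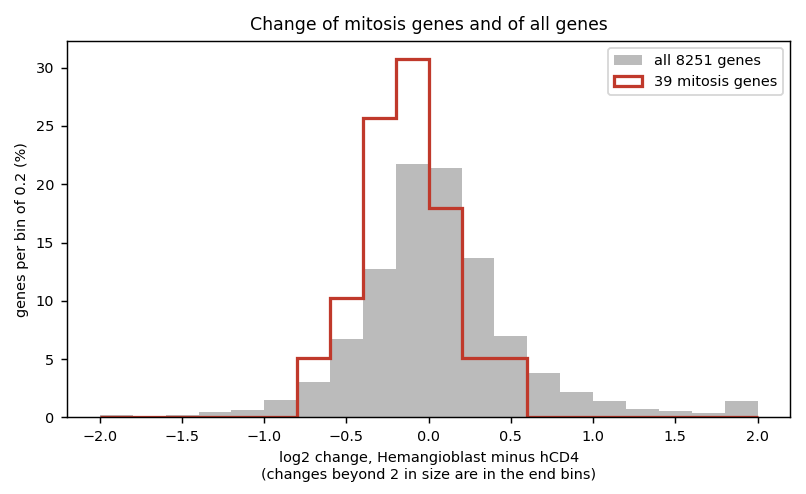
Share of genes in each bin of 0.2 log2 units of change (Hemangioblast minus hCD4), for all 8251 genes (grey) and the 39 mitosis genes (red line). The members lie between -0.76 and 0.48 and centre slightly below 0, with a median of -0.16, while the grey bars reach beyond 2 on both sides.

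The spread between arrays was of the same order as these shifts. The median size of a member's change was 0.21, while its arrays differed by a median of 0.26 within the Hemangioblast group and 0.13 within hCD4. Over all genes these values were 0.24, 0.25 and 0.24. A change compares means of 2 arrays, which vary less than the single arrays compared within a group. On Hemangioblast replicate 1 the summed scaled intensity of the 39 members was 46130 and on replicate 2 it was 41200, against 49150 and 48140 on the hCD4 arrays. Replicate 1 was above replicate 2 for 28 of 39 members (44.7% of all genes), with a median log2 difference of 0.18, compared with -0.04 over all genes. On the hCD4 arrays the median difference was 0.01, and replicate 1 was higher for 22 of 39. The median change of the members was -0.21 without Hemangioblast replicate 1 and -0.13 without replicate 2. Deposited median intensity per array was 165 to 197. Precision is limited by having 2 arrays per group. Log2 intensities correlated across probe sets, which are not independent, at 0.961 and 0.963 within groups and 0.921 to 0.940 between them.

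Markers of blood and early embryonic cells differed between the same arrays. Those said to rise or fall passed the threshold, which 3.43% of all genes did higher and 1.95% lower. Of 15 myeloid markers 12 rose and 0 fell, and their summed scaled intensity was 12030 to 12910 on the Hemangioblast arrays and 859 to 916 on the hCD4 arrays. Adgre1 and Ptprc, which mark macrophages and leukocytes, were among the lowest on the hCD4 arrays, at 13.1 and 4.14 and at 28.5 and 2.67. Of 10 measured erythroid markers 7 rose (28640 to 29210 against 8201 to 8682). Of 10 pluripotency markers 3 fell and 0 rose (4533 to 4552 against 6185 to 8357). Much of that sum was Esrrb, at 3343 and 3476 against 3165 and 3579. Pou5f1, which fell, was at 104 and 144 against 1526 and 585. The hCD4 arrays differed from each other here, with replicate 1 higher for 9 of the 10 markers and a median log2 difference of 0.91. Of 8 hemangioblast and early mesoderm markers 4 fell (3172 to 3520 against 7066 to 7810). The change was below 0 for all 8, against 47.5% of all genes. Etv2 was at 19.0 and 36.4 against 443.5 and 422.5 (limma adjusted p = 0.000703). Kdr and Tal1, the genes of Flk-1 and Scl, were both dimmer on the arrays titled Hemangioblast. Kdr was at 648 and 570 against 1625 and 2003 (limma adjusted p = 0.00158), and Tal1 was at 391 and 333 against 597 and 696 and missed the threshold (0.0513). The labels do not settle which population these arrays hold. A lower value on the Hemangioblast arrays is thus not shown to be a trait of sorted Flk-1+Scl+ cells. Among 11 fibroblast and matrix genes 1 rose and 1 fell (2816 to 3505 against 2615 to 2952). No marker in these lists was listed at 0. The part of cell composition in the values of the mitosis genes was not tested, and in a bulk sample fewer dividing cells and less RNA per cell cannot be told apart.

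Cdk1, the kinase that drives entry into mitosis, showed no called difference. Its scaled intensity was 1694 and 1404 on the Hemangioblast arrays. On the hCD4 arrays it was 1753 and 1707, which gives a log2 change of -0.16 (95% interval -0.51 to 0.19). The 2 sets of arrays did not overlap, but the nearest pair differed by little. Ccna2, the cyclin that partners Cdk2 and Cdk1 from S phase onward, was at 1220 and 1039 against 1041 and 1032 (change 0.12, SE 0.15). Ccnb2, a B-type cyclin of mitosis, was at 2455 and 1841 against 1998 and 1544 (change 0.27, SE 0.19). Its groups overlapped, and replicate 1 was the brighter array in both. Cks1b and Cks2, small subunits that bind cyclin-dependent kinases, had changes of -0.23 (SE 0.15) and -0.05 (SE 0.15). Of the 7 members of this role, 4 had a change below 0 and 3 above, and 0 passed the threshold, with 1 at an unadjusted p under 0.05.

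That gene was Cdc25a, a phosphatase that activates cyclin-dependent kinases from the G1/S transition onward. It was at 748 and 523 on the Hemangioblast arrays, against 1122 and 1028. Both Hemangioblast arrays lay below both hCD4 arrays, and replicate 2 was the lowest. The log2 change was -0.76 (SE 0.20, 95% interval -1.22 to -0.31), and the gene missed the threshold (limma adjusted p = 0.0753). In 3 of the 13 alternative settings the gene passed, among them the fit without Hemangioblast replicate 1 (limma adjusted p = 0.0174) and that with dim probe sets left out (0.0314). A dim second probe set, at 42.6 to 71.8, had a change of -0.27 (SE 0.34) with overlapping groups. Cdc25c, the family member that acts on Cdk1 at mitotic entry, was at 460 and 371 against 375 and 423 (change 0.05, SE 0.20), and its other probe set had a change of 0.15 (SE 0.18). The change of Cdc25c was thus near 0 by both probe sets.

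The mitotic kinases were slightly dimmer on the Hemangioblast arrays, and none passed the threshold. Plk1, which acts at centrosomes, kinetochores and the midbody, was at 1111 and 1209 against 1624 and 1439. The groups did not overlap (change -0.39, SE 0.15, limma adjusted p = 0.227). Its other 2 probe sets had changes of -0.21 (SE 0.20) and -0.05 (SE 0.22), with overlapping groups. The change in Plk1 was therefore largest on its brightest probe set. Aurka, the kinase of the spindle poles, was at 460 and 479 against 584 and 549 (change -0.26, SE 0.17). Nek2, which helps to separate the centrosomes, was at 731 and 765 against 808 and 858 (change -0.15, SE 0.15). In both kinases the 2 arrays of a group lay close together and the groups did not overlap. Foxm1, a transcription factor of late cell cycle genes, went the other way at 453 and 685 against 499 and 497 (change 0.16, SE 0.22), with 1 Hemangioblast array below and 1 above both hCD4 arrays. Its second probe set had a change of 0.41 (SE 0.37).

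Among the genes of the spindle checkpoint and APC/C, 4 of 6 had a change below 0 (71.8% of all 39 members) and 0 passed. Bub1, a checkpoint kinase at kinetochores, was at 1106 and 892 against 1243 and 1510. No Hemangioblast array reached the hCD4 level, and the change was -0.46 (SE 0.17, limma adjusted p = 0.234). The other 2 probe sets of Bub1 were dim and disagreed with each other. One was at 26.3 and 95.5 against 88.2 and 76.7 (change -0.52, SE 0.47), and the other at 62.3 and 63.0 against 29.3 and 62.8 (change 0.40, SE 0.38). Mad2l1, which binds and inhibits Cdc20, was at 827 and 790 against 1062 and 946 (change -0.31, SE 0.15). Cdc20 itself was at 2455 and 2093 against 3100 and 2664 (change -0.34, SE 0.15, limma adjusted p = 0.333). For Mad2l1 and Cdc20 the groups did not overlap. Bub3, the partner of Bub1, had a change of -0.12 (SE 0.16), and its second, dim probe set one of -0.02 (SE 0.29). Ttk, the kinase also called Mps1, was at 586 and 443 against 520 and 428 (change 0.11, SE 0.21). Ube2c, the ubiquitin-conjugating enzyme of APC/C, was the brighter one on the Hemangioblast arrays, at 201 and 254 against 159 and 165. Its groups did not overlap, but the change was uncertain at 0.45 (SE 0.25, 95% interval -0.12 to 1.01).

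The chromosomal passenger complex corrects faulty kinetochore attachments and later acts in cytokinesis. None of its 3 measured genes passed the threshold. The kinase Aurkb was at 215 and 198 against 198 and 229 (change -0.04, SE 0.23). Birc5, which encodes survivin, was at 1345 and 1122 against 1451 and 1162 (change -0.08, SE 0.17). In both genes the groups overlapped. The scaffold Incenp was at 638 and 601 against 704 and 738 (change -0.21, SE 0.16). Its groups did not overlap, and at a dimmer probe set the change was -0.13 (SE 0.23). The 95% intervals of these 3 genes, on the brighter probe set of Incenp, lay inside a 1.5-fold difference in either direction. This was so for 17 of all 39 members.

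**Figure D3:**
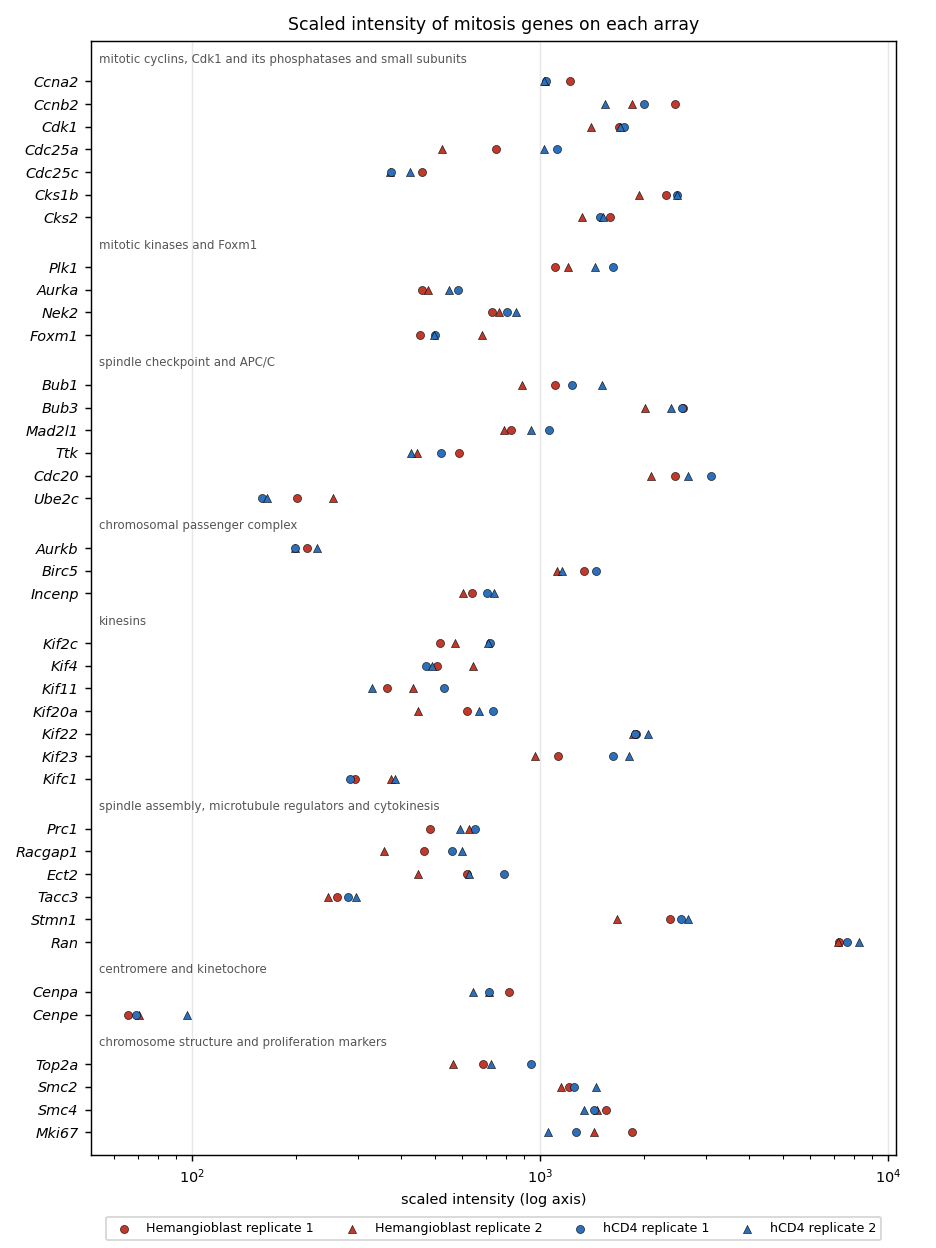
Scaled intensity (log axis) of the 39 mitosis genes on each of the 4 arrays, grouped by role, 1 probe set per gene. Circles are replicate 1 and triangles replicate 2, red the Hemangioblast and blue the hCD4 arrays. In most rows the 4 points lie close together, and Kif23 shows both red points (968 and 1131) left of both blue ones (1622 and 1812). Levels of different genes are not comparable between rows.

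Among the kinesins, Kif23 fell and the other 6 did not pass. Kif23 encodes the motor subunit of centralspindlin, which bundles the microtubules of the central spindle for cytokinesis. Its scaled intensity was 1131 and 968 on the Hemangioblast arrays, against 1622 and 1812 on those of hCD4 (1050 ± 115 and 1717 ± 134, SD, n = 2). Every Hemangioblast array lay below every hCD4 array. The log2 change was -0.70 (SE 0.15, 95% interval -1.06 to -0.35, limma adjusted p = 0.0431), or 0.614 of the hCD4 level. The direction held in all 13 alternative settings, with changes of -0.81 to -0.59, but the call was lost in 7 of them. The adjusted p was 0.113, 0.162 and 0.319 without Hemangioblast replicate 2, hCD4 replicate 1 and hCD4 replicate 2, and it was 0.0526 to 0.186 under the 3 other ways of scaling the arrays.

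Kif2c, which takes microtubules apart at centromeres, was at 517 and 570 against 719 and 710. The groups did not overlap, and the change was -0.39 (SE 0.16, limma adjusted p = 0.287). Kif20a, a motor of the central spindle and midbody, was at 618 and 446 against 734 and 670 (change -0.41, SE 0.20), and at a second probe set the change was -0.20 (SE 0.21). Kif4, which acts on chromosome arms and in the central spindle, was higher on both Hemangioblast arrays, at 507 and 642 against 471 and 492 (change 0.24, SE 0.19). The chromosome motor Kif22 (change -0.07, SE 0.14) and Kif11, which pushes the spindle poles apart (-0.07, SE 0.25), had changes near 0. So had Kifc1, a minus-end motor that focuses the poles (0.01, SE 0.23). In these 3 genes the arrays of the groups overlapped. Kif11 varied most within a group, at 532 and 329 on the hCD4 arrays.

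Racgap1, Ect2 and Prc1, partners of Kif23 in cytokinesis, had changes below 0 that did not pass. Changes below 0 were found for 28 of all 39 members (71.8%). Not all members that act in cytokinesis were lower. Kif4 was higher on both Hemangioblast arrays (change 0.24, SE 0.19), and Aurkb, Birc5 and Incenp had changes of -0.04, -0.08 and -0.21. Racgap1, the other subunit of centralspindlin, was at 467 and 357 against 559 and 598. Its groups did not overlap, with a change of -0.49 (SE 0.19, limma adjusted p = 0.256). Ect2, the exchange factor for RhoA that centralspindlin recruits, was at 618 and 449 against 789 and 625 (change -0.40, SE 0.21, limma adjusted p = 0.414). Here the nearest arrays, at 618 and 625, were close to equal. Prc1, which cross-links the microtubules of the central spindle, was at 485 and 629 against 650 and 589 (change -0.16, SE 0.19), with overlapping groups. The windows printed above show TTTGAA and CCAAT of Kif23 and Racgap1 beside the start. That of Ect2 shows a TTTGAA at -114 and ends before another that begins 39 bases after the start base. Prc1 also holds both motifs. So do 23 of the 35 matched genes, among them Kif4 and Mki67, whose changes were above 0. The motifs thus do not set this group apart, and their bearing on the changes was not tested.

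**Figure D4:**
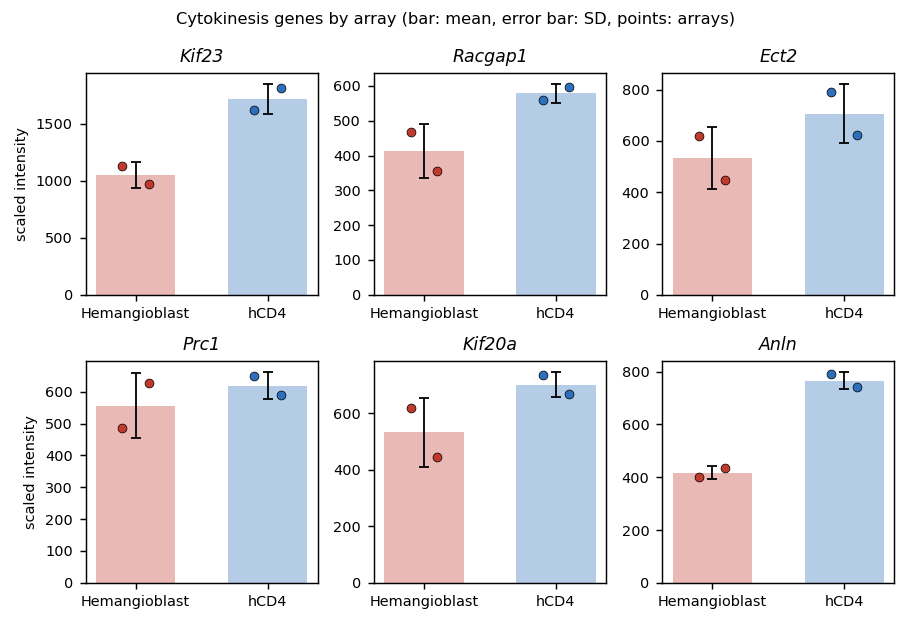
Scaled intensity of Kif23, Racgap1, Ect2, Prc1, Kif20a and Anln on the Hemangioblast (red) and hCD4 (blue) arrays. Points are the 2 arrays of a group, bars their mean and error bars their SD. Kif23 (1131 and 968 against 1622 and 1812) and Anln (399 and 434 against 790 and 743) passed the threshold, while the points of Prc1 overlap between the groups. Anln is not among the 39 members. Kif4, which was higher on both Hemangioblast arrays (change 0.24), is not drawn.

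The remaining genes of spindle assembly gave small changes. Tacc3, which stabilises microtubules with Aurka and clathrin, was at 262 and 247 against 282 and 297 (change -0.18, SE 0.21). Stmn1, which encodes the tubulin-binding protein stathmin, was at 2371 and 1673 against 2542 and 2668 (change -0.38, SE 0.18), and a dim second probe set had a change of -0.41 (SE 0.30). On both probe sets of Stmn1 the groups did not overlap, and replicate 2 was the dimmer Hemangioblast array. Ran, the GTPase whose GTP-bound form promotes spindle assembly around chromatin, was at 7258 and 7191 against 7619 and 8298 (change -0.14, SE 0.14). All 6 genes of this group, from Prc1 to Ran, had changes below 0, as had 71.8% of all 39 members, and 0 passed.

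At the centromere, Cenpa, the histone variant that marks it, was at 816 and 717 against 716 and 646. The lower Hemangioblast array and the higher hCD4 array were equal to within 1 unit, and the change was 0.17 (SE 0.16). Cenpe, a kinetochore motor, was the dimmest member, at 65.6 and 70.7 against 69.2 and 97.1 (change -0.22, SE 0.32). Its other probe set ran the opposite way at 43.6 and 90.8 against 33.5 and 40.4 (change 0.59, SE 0.39). At such intensities the probe sets of Cenpe gave no clear direction.

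The 2 proliferation markers moved in opposite directions, neither past the threshold. Mki67, whose product Ki-67 coats mitotic chromosomes, was at 1837 and 1438 against 1271 and 1057. No hCD4 array reached the Hemangioblast level, and the change was 0.48 (SE 0.18, limma adjusted p = 0.210). A second, dim probe set changed by 0.34 (SE 0.32). Top2a, the topoisomerase that untangles sister chromatids, was at 690 and 563 against 942 and 723, a change of -0.40 (SE 0.19, limma adjusted p = 0.376). The difference between Mki67 and Top2a was not tested. The condensin subunits Smc2 and Smc4 had changes of -0.19 (SE 0.15) and 0.11 (SE 0.14). As these subunits form 1 complex, their values are set side by side: Smc2 was at 1211 and 1152 against 1253 and 1455, and Smc4 at 1547 and 1458 against 1433 and 1341.

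Where a gene had several probe sets, they mostly gave the same direction. Of 11 such members, only Bub1 and Cenpe had probe sets of opposite sign. None of the 13 further probe sets passed (limma adjusted p of 0.542 to 0.991), where 4.48% of all probe sets did, and 6 of them had a mean intensity under 100. The adjusted p of the 38 members that did not pass ran from 0.0753 to 0.998. No exact permutation test was made, because 2 arrays against 2 allow no two-sided p smaller than 0.333. Probe sets whose suffix (_f or _s) marks probes shared between related transcripts represent Kif20a, Kifc1 and Cdc25c, so related transcripts could add to those values. Other suffixes occur for Plk1 and Foxm1 (_g) and for Kif22 and Ube2c (_r), and their bearing on the values was not examined.

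Of 60 other genes of mitosis named from general knowledge, 41 were measured, and 3 fell and 0 rose (7.32%, against 5.38% of all genes in either direction). Their median change was -0.09, with 31 of 41 below 0 (75.6%, against 47.5% of all genes). They too were brighter than most genes (median mean intensity 611 against 265) and were not compared with genes of like intensity. Anln, the scaffold of the contractile ring, was at 399 and 434 against 790 and 743, a log2 change of -0.86 (SE 0.17, limma adjusted p = 0.0264). Rcc1, the exchange factor that loads GTP onto Ran at chromatin, was at 252 and 353 against 590 and 722 (change -1.09, SE 0.22, limma adjusted p = 0.0305). Tmpo, a lamina-associated protein of the nuclear envelope, was at 814 and 881 against 1339 and 1408 (change -0.69, SE 0.15, limma adjusted p = 0.0386). In all 3 genes the groups lay well apart. The calls were lost without scaling (adjusted p of 0.105 for Anln, 0.0550 for Rcc1 and 0.140 for Tmpo) and without Hemangioblast replicate 1 or either hCD4 array. That of Tmpo was lost in 9 of the 13 alternative settings, among them median scaling (0.0556), quantile normalization (0.0602) and the fit without Hemangioblast replicate 2 (0.0542). Tmpo was lower on a second probe set too (-1.20, adjusted p = 0.0359) but not on another (0.16, SE 0.30).

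Genes of S phase also had changes mostly below 0. Of 36 measured genes of DNA replication and nucleotide supply, 0 passed the threshold by limma, and 8 (22.2%, against 18.3% of all genes) had an unadjusted p under 0.05. Of the 36 genes, 7 were lower at this level, against 8.67% of all genes. The median change was -0.17, and 27 of 36 were below 0, against 47.5% of all genes. These genes were also brighter than most (median mean intensity 631 against 265), and were not compared with genes of like intensity. Mcm2, a subunit of the replicative helicase, came closest at 812 and 737 against 1227 and 1225 (change -0.65, SE 0.15, limma adjusted p = 0.0502). The difference between the mitosis and S-phase genes was not tested.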

How the data were processed

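Biotin-labelled total RNA (20 ug, TRIzol, not amplified, per the labels' protocols) of 4 samples was measured on single-colour arrays. The authors deposited a linear intensity for each probe set. How it was computed and scaled is not given in the sources used here. Of 12488 probe sets, 66 controls were left out. Arrays were brought to their average trimmed mean (2% trimmed at each end, factors 0.936 to 1.09), 16 was added and log2 taken, which understates changes of dim genes. The SDs are of scaled intensities. A gene with several probe sets is represented by the one with the highest mean. Of the tested probe sets 10833 have 1 symbol, 396 several and 1193 none, and 0 of the 10817 symbols found in RefSeq by gene identifier differed.

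The comparison used limma (version 3.58.1, in R version 4.3.3, lmFit, eBayes with an intensity trend, 2 residual and 6.18 prior degrees of freedom), two-sided, with Benjamini-Hochberg adjustment over 12422 probe sets, a threshold of 0.05 and no block. It called 556 probe sets. The fit was run on simulated data in which every probe set had the same spread and only probe sets above the median brightness were changed. Its behaviour on dim probe sets, or where spread depends on intensity, was thus not checked. Every member on the array is named, and up to 6 others per list that passed. Values are given by array for members that passed, for those whose groups do not overlap with a change of 0.5 or more, for those whose probe sets disagree, and for further members. Mcm2 was named after its value was seen. The members, gene lists and tests were chosen with earlier results of these data known. The alternatives were a constant of 1 or 64, median, quantile or no scaling, leaving out probe sets with a mean under 100, no intensity trend, a replicate block, leaving out each array, and averaging a gene's probe sets. Figures used matplotlib 3.10.9 in Python 3.11.15.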

Additional observations from a re-analysis of the deposited data

How the results depend on the processing

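The direction of Kif23 held in all 13 alternatives, and 27 of 39 members kept the sign of their change in all of them. With 28 of 39 members below 0 in the reported fit, the alternatives gave 26 to 30. The count of members past the threshold, 1 gene on 1 probe set, became 0 with median scaling, quantile normalization, no scaling and no intensity trend. It became 2 (Kif23 and Cdc25a) with dim probe sets left out and with the replicate block (limma adjusted p of 0.0327 for Cdc25a there), and was 0 to 2 with 1 array left out, where a lone array is assumed to vary like the other group. The median change of members was -0.24 with median scaling. The 3 other mitosis genes became 0 without scaling and without an intensity trend, and 0 to 2 with 1 array left out. The 0 S-phase genes became 2 with a constant of 1, 3 with dim probe sets left out, 1 with the replicate block, 1 with averaged probe sets, and 0 to 1 with 1 array left out. Over all probe sets the count of 556 was 272 without scaling, 853 with dim probe sets left out, 220 without a trend, 710 with the replicate block and 219 to 517 with 1 array left out. Of the calls, 65.1% were higher, against 81.6% without scaling. The 3 other scalings each moved the median of all probe sets by under 0.1. Whether the replicate numbers pair the arrays is not stated in the labels, and with 2 pairs the arrays do not settle it. Deviations of arrays with the same number correlated at -0.0078 across all probe sets and at 0.20 across the 39 members. Causes of these changes were not tested. The 2 arrays per group limit every value, and dim probe sets such as those of Cenpe most.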

Other observations

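Of the other mitosis genes, members of the spindle assembly and cohesin machinery that did not pass are given as values. Trip13, an ATPase that disassembles checkpoint complexes, was at 570 and 592 on the Hemangioblast arrays and at 833 and 956 on the hCD4 arrays (log2 change -0.61, SE 0.16, limma adjusted p = 0.0851). Nde1, a dynein regulator at centrosomes and kinetochores, was at 313 and 354 against 529 and 538 (-0.66, SE 0.18, limma adjusted p = 0.0952). In both genes the groups did not overlap. Cohesin genes did not share a direction, with Rad21 at 2551 and 1922 against 1940 and 1620 (0.32, SE 0.18), Smc3 at -0.02 (SE 0.16), Stag1 at 111 and 171 against 217 and 179 (-0.46, SE 0.29, groups not overlapping) and Stag2 at -0.25 (SE 0.16). A second probe set of Stag2 ran the other way (0.30, SE 0.23). APC/C genes had changes of -0.42 (SE 0.17) for Cdc26, -0.20 (SE 0.19) for Cdc16, -0.12 (SE 0.22) for Cdc23, -0.01 (SE 0.16) for Anapc1 and 0.08 (SE 0.14) for Anapc5. Ranbp1, a partner of Ran, was at 1896 and 1605 against 2070 and 2233 (-0.30, SE 0.15), with Ran at -0.14 and Rcc1 at -1.09. These genes were named after their values were seen.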
